A study of Homo sapiens with 9 samples.

Results

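The BRG1 binding map of DND-41 cells consists of 7445 peaks, which is every interval in the BRG1 peak list of the series and 4.05% of the 183634 peaks in its 5 lists. DND-41 is an established line of human T-cell acute lymphoblastic leukemia. Its chromatin was profiled by CUT&RUN, in which an antibody directs a tethered nuclease to its target and the released DNA is sequenced. The BRG1, H3K4me3 and RUNX1 libraries carry no treatment label and are read here as untreated cells. H3K27ac was profiled in cells given 100 nM ACBI-1, a compound that degrades the SWI/SNF ATPases and PBRM1, and in cells given DMSO, its vehicle. All groups are DND-41 cells with no genotype change named in the labels, and the duration of the ACBI-1 treatment is not given in the sources used here.

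BRG1, the product of SMARCA4, is an ATPase of the SWI/SNF (BAF) chromatin remodeling complexes, which slide or evict nucleosomes and so open DNA to transcription factors. SWI/SNF occupies both promoters and enhancers, and RUNX1 is a sequence-specific transcription factor of the blood lineages, T cells included. H3K4me3 marks mainly active promoters, and H3K27ac marks active promoters and enhancers. The lists thus allow each BRG1 peak to be placed against promoter-type and enhancer-type chromatin.

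Each target and condition had 1 library, so the values carry no replicate check and no test was made. The lists hold positions without read counts, so sequencing depth is unknown. Intervals are 95% intervals that cover counting error over peaks only, and neighbouring peaks are not independent. The antibody's target could not be checked from positions alone. Coordinates are hg19, counted from 1, and no gene annotation of that build was used, so sites are given without gene names.

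BRG1 peaks were narrow and mostly lay in acetylated chromatin that also held RUNX1. Their widths ran from 150 to 1606 bp, with quartiles of 201, 284 and 385 bp, and 275 peaks sat at the 150 bp minimum. All 3 of H3K4me3, DMSO H3K27ac and RUNX1 overlapped 3593 BRG1 peaks, and 2012 had H3K27ac and RUNX1 without H3K4me3. A further 799 had both histone marks without RUNX1, and 440 had H3K27ac alone. Without H3K27ac there were 247 with RUNX1 alone, 154 with H3K4me3 and RUNX1, and 55 with H3K4me3 alone, while 145 had none of the 3.

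Wider BRG1 peaks overlapped each of the 3 more often. The 2844 BRG1 peaks off H3K4me3 had a median width of 263.5 bp (256 to 269), against 297 bp (292 to 300) for the 4601 on it. From the narrowest to the widest quartile of BRG1 peaks, the share on H3K4me3 went from 54.6% through 60.1% and 62.3% to 70.3%. The share with RUNX1 went from 71.3% to 89.1%, and the share in DMSO H3K27ac from 88.4% to 95.7%. A wider peak has more chance of touching another interval, and the part of width in these shares was not tested.

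The 601 BRG1 peaks outside DMSO H3K27ac lay at a median of 6377 bp from it, with the counts highest in the nearest and the farthest class. Of these, 190 lay within 500 bp of an H3K27ac peak, and 117 of those 190 were on H3K4me3. Farther out, 31 lay at 500 bp to 1 kb, 66 at 1 to 5 kb and 51 at 5 to 10 kb. At the other end, 263 lay 10 kb or more from any H3K27ac peak, and 55 of them were on H3K4me3. The second and the fourth widest BRG1 peaks off H3K4me3 belonged to the far sites. One, at chr19:44980660-44981724, was 1065 bp wide and 22149 bp from the nearest DMSO H3K27ac peak. The other, at chr12:133634659-133635683, was 1025 bp wide and 20062 bp away. Neither overlapped RUNX1.

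Along the chromosomes BRG1 peaks were mostly solitary, with a minority in tight groups. The median edge-to-edge gap between neighbouring peaks was 114960 bp (110432 to 120919) over 7421 gaps, and 10% of the gaps were shorter than 5337 bp. The mean gap, 394869 bp, was 3.43 times the median, with the longest at 34305326 bp. Of the 7445 peaks, 860 (11.6%, 10.8 to 12.3) had another BRG1 peak within 1 kb, and 117 (1.57%) had none within 1 Mb. The corresponding share within 1 kb was 26.3% for RUNX1 and 26.8% for H3K4me3. Those lists are longer, and the difference was not tested. Keeping only the wider 50% of the BRG1 peaks gave a share of 7.12% and a median gap of 246745 bp.

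**Figure D1:**
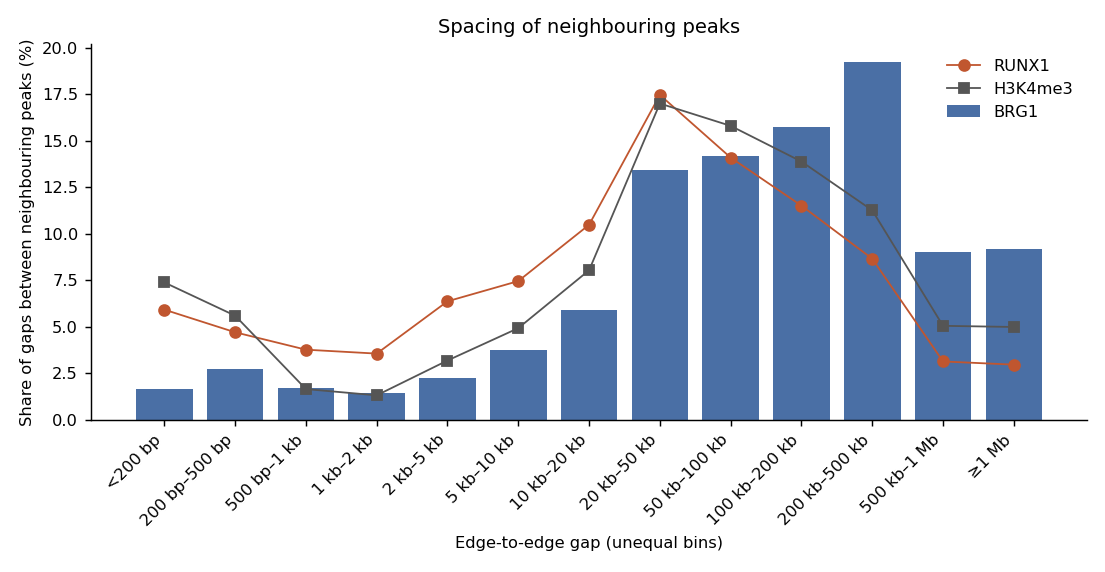
Share of gaps between neighbouring peaks (percent, vertical axis) in bins of edge-to-edge gap (horizontal axis, bins of unequal width) for BRG1 (bars), RUNX1 (circles) and H3K4me3 (squares), 1 library each. The BRG1 bars are highest between 200 and 500 kb, and RUNX1 and H3K4me3 between 20 and 50 kb.

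Close BRG1 peaks mostly shared an H3K27ac peak, in a share near that of all BRG1 peaks in DMSO H3K27ac, 91.9%. The sharing is thus no trait of close pairs as it stands. Of the 323 neighbouring pairs less than 500 bp apart, 297 (92.0%, 88.4 to 94.7) lay in the same DMSO H3K27ac peak, 174 (53.9%) in the same H3K4me3 peak and 144 (44.6%) in the same RUNX1 peak. Of the 126 pairs 500 bp to 1 kb apart, 115 still shared an H3K27ac peak and 68 an H3K4me3 peak, but 20 shared a RUNX1 peak. At 1 to 5 kb, 165 of 269 pairs shared an H3K27ac peak, 36 an H3K4me3 peak and 3 a RUNX1 peak. From 5 to 20 kb, 48 of 713 pairs shared an H3K27ac peak and none shared an H3K4me3 peak.

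Neighbours also shared their promoter status at short range. Such pairs often touch the same H3K4me3 peak, and the part of the mark's width was not tested. Of all BRG1 peaks, 61.8% were on H3K4me3. Pairs with 1 peak on and 1 off H3K4me3 made up 5.26% (3.10 to 8.29) of pairs under 500 bp. That share went through 16.0% at 1 to 5 kb, 24.0% at 5 to 20 kb and 29.8% at 20 to 100 kb to 48.0% at 1 Mb or more. Pairs with both peaks off H3K4me3 were most frequent at 1 to 5 kb, where they were 133 of 269 (49.4%, 43.3 to 55.6), against 24.8% (20.2 to 29.8) of pairs under 500 bp. Pairs with both peaks on H3K4me3 were 70.0% of those under 500 bp and 34.6% of those at 1 to 5 kb.

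Neighbours were next joined into groups up to the distance commonly used to stitch enhancers, so that the longest gap joined was 12487 bp and the shortest not joined was 12524 bp. This gave 6341 groups, of which 5461 were single peaks. The remaining 1984 peaks (26.6%) formed 708 pairs, 139 triples and 33 larger groups. Singles and members of pairs were on H3K4me3 about equally often, at 62.8% and 62.4%. Members of triples were on it in 51.1% (46.2 to 56.0) and members of larger groups in 49.0% (40.8 to 57.3). The share in DMSO H3K27ac went the other way, from 91.0% of singles to 96.0% of peaks in groups of 4 or more.

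The group with the most peaks held 8 BRG1 peaks over 35782 bp at chr19:1240176-1275957. Of the 8, 6 were on H3K4me3, 6 in DMSO H3K27ac, 5 with RUNX1 and 4 in ACBI H3K27ac, and the widest was 1212 bp. For scale, 59.1% of all DMSO H3K27ac peaks had no overlapping ACBI peak, and 23.7% of all BRG1 peaks in DMSO H3K27ac had none. The next, at chr1:192499401-192520323, was of another kind: none of its 7 BRG1 peaks was on H3K4me3, all 7 lay in both DMSO and ACBI H3K27ac, and 6 overlapped RUNX1. Another group, at chr1:198999066-199013722, had 7 peaks within 14657 bp, 1 of them on H3K4me3 and all 7 in H3K27ac of both conditions. Groups of the most BRG1 peaks were therefore found in promoter-rich and in promoter-poor chromatin alike.

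In windows of 1 Mb, 1145 of 3049 windows on the autosomes and X (37.6%) held no BRG1 peak. At the other end, 107 windows with 10 or more held 1360 peaks (18.3%), and the fullest held 30. The variance of the counts was 3.97 times their mean of 2.44, so the peaks were not spread evenly, and 445 windows (14.6%) were enough to hold 50% of them. Assembly gaps and other stretches where reads cannot be placed are included in these windows.

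BRG1 density differed strongly between chromosomes, and the order of the chromosomes depended on what the density was taken against. Per Mb of chromosome, from its start to the end of its last peak in any list, the average over autosomes and X was 2.45. Chromosome 19 had 6.41 per Mb (5.78 to 7.09), followed by chromosome 17 with 4.18, and the lowest were X with 0.837 (0.700 to 0.994) and chromosome 4 with 1.68. The highest was 7.66 times the lowest. The H3K4me3 list has the same chromosome at the top, with 17.2 peaks per Mb on chromosome 19.

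Counted per Mb of DMSO H3K27ac, chromosomes 19 and X came close to each other, at 58.2 (52.5 to 64.4) and 60.9 (50.9 to 72.3). On this measure the range was 2.35 times, from 32.1 on chromosome 22 to 75.5 on chromosome 13. Counted per 100 H3K4me3 peaks the range was 2.97 times, and chromosome 19, with 37.4 (33.7 to 41.3), was the second lowest after X, with 30.2 (25.3 to 35.9). Chromosomes 21 and 18 were then the highest, at 89.7 and 87.1. Chromosome 19 thus went from the top to near the bottom when its many H3K4me3 peaks were the base.

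**Figure D2:**
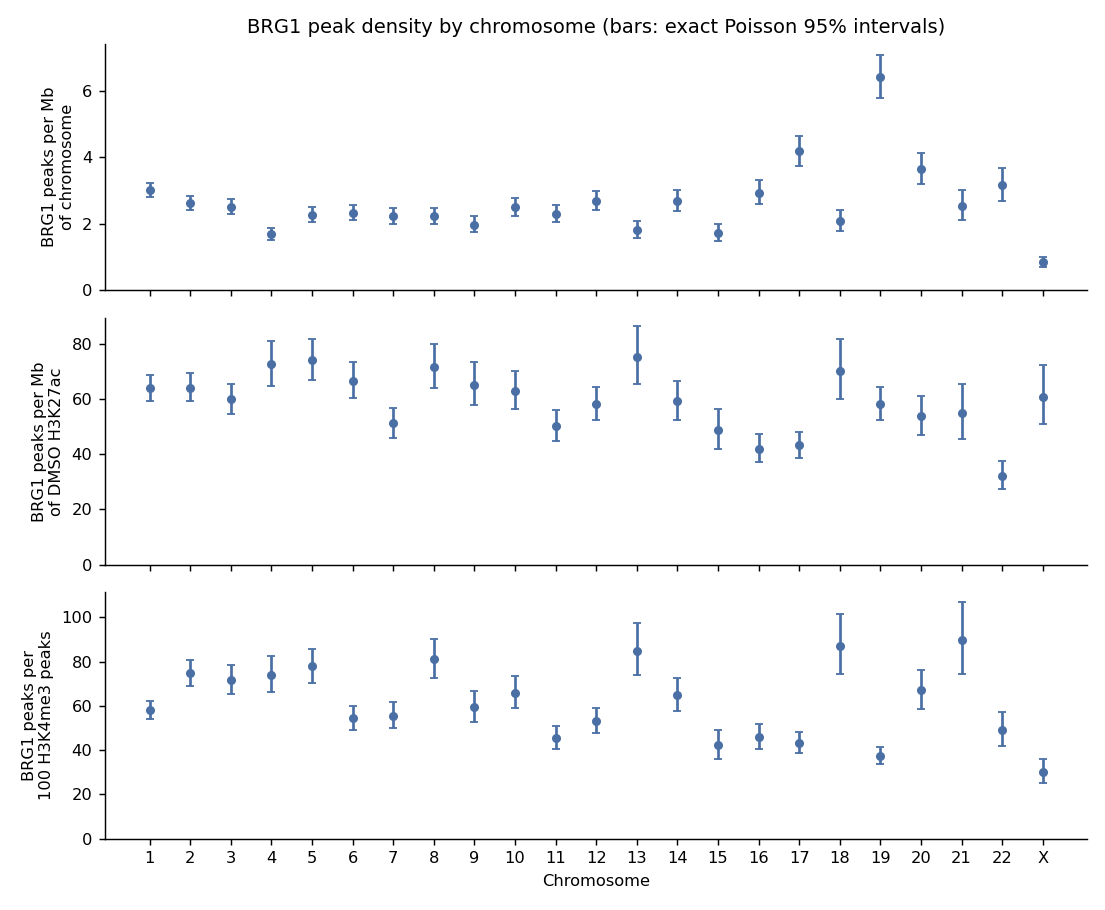
BRG1 peaks per Mb of chromosome (top), per Mb covered by DMSO H3K27ac (middle) and per 100 H3K4me3 peaks (bottom) for each autosome and X, 1 library, with exact Poisson 95% intervals. Chromosome 19 stands highest in the top panel at 6.41, lies mid-range in the middle panel at 58.2 and is second lowest in the bottom panel at 37.4.

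Among the autosomes and X, the makeup of the BRG1 peaks also differed. On chromosomes 19 and 17, 84.4% (80.4 to 87.9) and 80.8% of BRG1 peaks were on H3K4me3, whereas chromosomes 5 and 13 had 48.2% (43.2 to 53.1) and 49.0%. BRG1 peaks off H3K4me3 were spread more evenly, from 0.296 per Mb on X and 0.576 on chromosome 9 to 1.22 on chromosome 14 and 1.31 on chromosome 1. Chromosome 19 had 0.998 of them per Mb, so its lead in BRG1 density lay in peaks on H3K4me3. On X, 19.1% of H3K4me3 peaks held BRG1, the lowest share among the autosomes and X, and on chromosome 21 49.3%, the highest. Chromosome Y, with 5 BRG1 peaks, was left out of these ranges.

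Most H3K4me3 peaks held no BRG1 peak, and those that did usually held 1. Of 12834 H3K4me3 peaks, 8401 held none, 4170 held 1, 250 held 2, 12 held 3 and 1 held 5. BRG1 was thus in 4433 (34.5%, 33.7 to 35.4), of which 263 (5.93%) had 2 or more. A BRG1 peak covered a median of 17.2% of the H3K4me3 peak that held it, so the BRG1 interval was much narrower than the mark.

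Wider H3K4me3 peaks held BRG1 more often but less densely. The median width was 1254 bp without BRG1, 1745 bp with it and 2631 bp with 2 or more. Over quintiles of H3K4me3 width, from narrow to wide, the share with BRG1 went from 15.2% through 28.7%, 35.8% and 41.3% to 51.7%. Per 100 kb of H3K4me3, the number of BRG1 peaks went the other way, from 46.3 to 31.6, 25.9, 22.6 and 19.8. Short intervals are touched by peaks that reach past their ends, which raises the count per length in the narrow quintiles.

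DMSO H3K27ac peaks were far more numerous and mostly without BRG1. Of 90495, 84278 held none, 5676 held 1, 475 held 2 and 66 held 3 to 6. BRG1 was in 6217 (6.87%, 6.71 to 7.04), of which 541 (8.70%) had 2 or more. The median width was 688 bp without BRG1, 2215 bp with it and 3997 bp with 2 or more. By quintile of width the share with BRG1 was 0.520%, 1.16%, 2.66%, 9.57% and 20.4%. The density per 100 kb was 2.37 in the narrowest quintile, 7.25 in the fourth and 5.54 in the widest. Unlike that in H3K4me3, it thus rose up to the fourth quintile and fell only in the widest.

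H3K27ac peaks that also carried H3K4me3 held BRG1 more often at every width. Of 10598 with H3K4me3, 4169 (39.3%) held BRG1, and of 79897 without it 2048 (2.56%) did. In the narrowest quintile the shares were 15.9% (11.6 to 21.0) and 0.303% (0.228 to 0.395), and in the widest 44.97% (43.6 to 46.3) and 10.7% (10.1 to 11.2). Once an H3K27ac peak held BRG1, the share with 2 or more was 8.88% (8.03 to 9.78) with H3K4me3 and 8.35% (7.19 to 9.63) without, and these intervals overlap. BRG1 peaks that shared an H3K27ac peak with at least 2 others were on H3K4me3 in 40.5% (33.9 to 47.3, n = 220), against 65.3% of those alone in theirs.

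**Figure D3:**
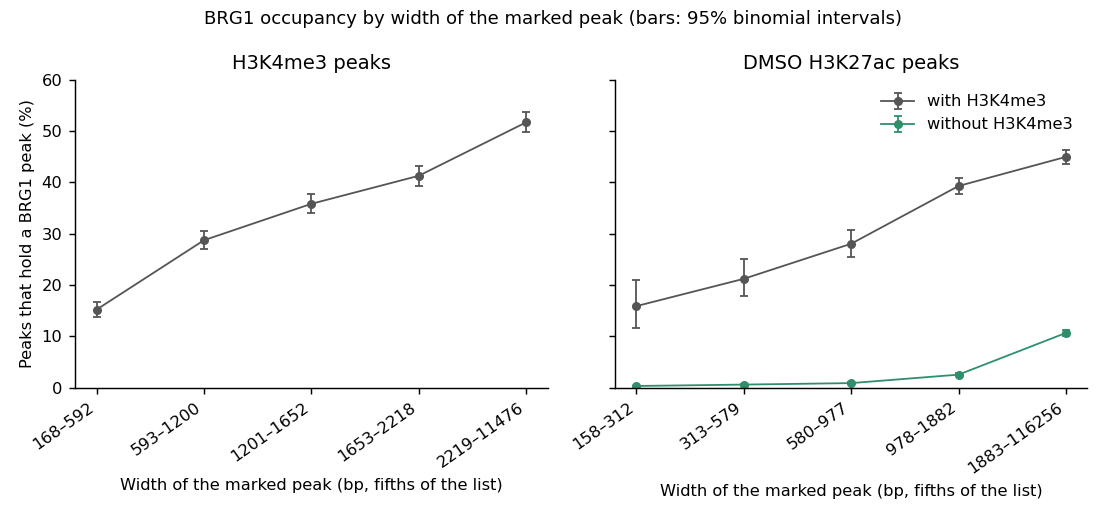
Share of H3K4me3 peaks (left) and of DMSO H3K27ac peaks (right, split by overlap with H3K4me3) that hold at least 1 BRG1 peak (percent, vertical axis) by quintile of peak width (bp, horizontal axis), 1 library each, with exact binomial 95% intervals. The share goes from 15.2% to 51.7% over the H3K4me3 quintiles, and the H3K27ac peaks with H3K4me3 lie above those without it in each quintile.

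The H3K4me3 and H3K27ac peaks with the most BRG1 peaks are given as examples. The H3K4me3 peak with 5 BRG1 peaks, chr2:232570743-232576877, was 6135 bp wide. Its BRG1 midpoints lay at 7, 18, 37, 59 and 69% of its length, all 5 were in DMSO and ACBI H3K27ac, and none overlapped RUNX1. The 12 H3K4me3 peaks with 3 BRG1 peaks were ranked by summed BRG1 width, and wider BRG1 peaks overlapped RUNX1 more often. In the first 4 of these, RUNX1 overlapped 3 of 3 in all but the one at chr6:108878584-108881863, where it overlapped 2. The DMSO H3K27ac peak with 6 BRG1 peaks, chr3:35673802-35707597, was 33796 bp wide. None of its 6 BRG1 peaks was on H3K4me3, 2 overlapped RUNX1, and all 6 lay in ACBI H3K27ac as well. Of the 4 H3K27ac peaks ranked next, each with 5 BRG1 peaks, 3 had no BRG1 peak on H3K4me3. The exception was chr1:234742859-234749894, with 4 of 5.

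Inside H3K4me3 peaks BRG1 was sparse at the very ends, and its place depended on the width of the mark. Of 4601 BRG1 peaks on H3K4me3, 4331 had their midpoint inside the H3K4me3 peak. To describe position, the length of each peak of a mark was cut into 10 equal deciles or 3 equal tertiles. The 2 end deciles held 12.8% (11.9 to 13.9) of those midpoints, where an even spread would put 20%, and the central tertile held 34.6% (33.2 to 36.0), against 33.3%. The average over all widths hid opposite patterns. In the narrowest quintile (168 to 592 bp) the central tertile held 44.5% (38.5 to 50.6). In the second quintile (593 to 1200 bp) and the next (1201 to 1652 bp) it held 21.5% (18.4 to 24.96) and 20.5% (17.8 to 23.3). In the 2 widest, 1653 to 2218 bp and 2219 to 11476 bp, it held 37.8% (34.9 to 40.8) and 44.4% (41.8 to 47.0).

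In H3K4me3 peaks of intermediate width BRG1 therefore lay in the flanks. The flanking deciles, numbers 2, 3, 8 and 9, would hold 40% of midpoints in an even spread. They held 53.0% (49.0 to 56.9) in the second quintile and 56.1% (52.8 to 59.4) in the middle one, but 36.8% in the narrowest and 37.9% in the widest. The median distance from a BRG1 midpoint to the nearer end of the H3K4me3 peak was 188.5 bp in the second quintile, 305.5 bp in the middle one and 889.75 bp in the widest. By coordinate, 50.5% (49.0 to 52.0) of midpoints lay on the side of the centre with the lower coordinates. The H3K4me3 peaks were not oriented by strand or gene, so this share cannot show whether BRG1 favoured a side of the promoter.

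RUNX1 had a pattern of the same shape, with 47.6, 28.5, 27.7, 40.02 and 42.2% of midpoints in the central tertile over the same quintiles. In the second and the middle quintile the BRG1 shares were below those of RUNX1. That difference was not tested, and 80.7% of BRG1 peaks overlap a RUNX1 peak, so the lists are not independent.

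Inside DMSO H3K27ac peaks BRG1 lay toward the centre, and RUNX1 did so to a similar degree. Of 6620 BRG1 midpoints, the central tertile held 46.7% (45.5 to 47.9) and the end deciles 8.01% (7.36 to 8.69). For RUNX1 the central tertile held 44.9% (44.1 to 45.7) and the end deciles 8.96%. By quintile of width the central tertile held 41.7, 41.2, 39.4, 45.5 and 48.2% of BRG1 midpoints. In the narrowest quintile, with 60 midpoints, the interval of 29.1 to 55.1 includes the even spread of 33.3%, and in each of the others it lies above it. The flanking pattern of the intermediate H3K4me3 peaks was not seen there. The same BRG1 peaks showed both patterns. For those with their midpoint in both marks, the central tertile of the H3K4me3 peak held 23.03% (19.6 to 26.8) in the second H3K4me3 quintile and 21.6% (18.8 to 24.6) in the middle one. The central tertile of the H3K27ac peak held 41.5% (37.3 to 45.8) and 38.9% (35.5 to 42.3) of these very peaks.

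**Figure D4:**
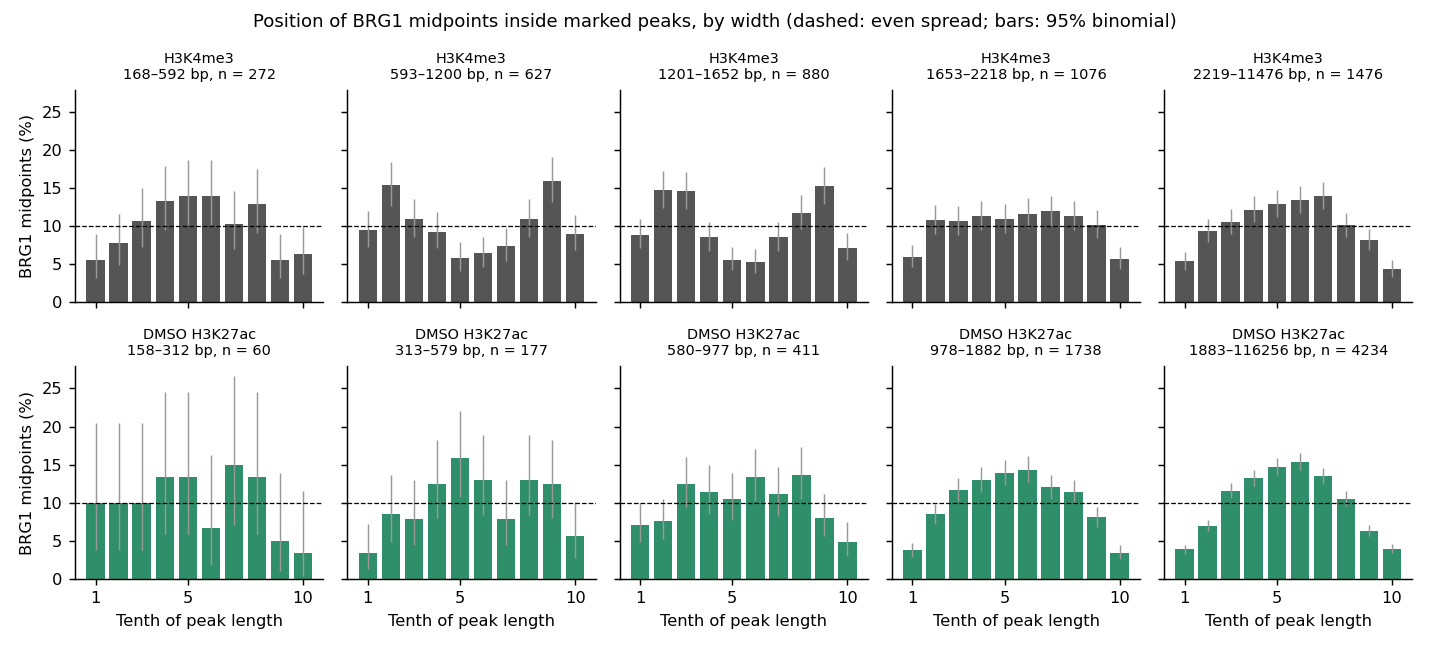
Share of BRG1 midpoints (percent, vertical axis) in each decile of the length of the H3K4me3 peak (top) or DMSO H3K27ac peak (bottom) that holds them, by quintile of that peak's width, 1 library each. Thin lines are exact binomial 95% intervals and the dashed line is an even spread of 10%. The second and the middle H3K4me3 quintile dip at their centre, where the central tertile held 21.5% and 20.5%, and the H3K27ac panels show no such dip.

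H3K4me3 peaks often come as close partners, and BRG1 lay toward the gap between them. Gaps of up to 500 bp separated 1663 neighbouring H3K4me3 peaks, and BRG1 touched 254 of these gaps (15.3%, 13.6 to 17.1). Within the gaps there were 31.5 BRG1 midpoints per 100 kb (26.0 to 37.9), against 22.3 (21.6 to 22.9) inside H3K4me3 peaks, and 108 BRG1 peaks touched 2 H3K4me3 peaks. In H3K4me3 peaks with such a partner on 1 side only, 390 of 617 BRG1 midpoints (63.2%, 59.3 to 67.0) lay on the side of the centre that faces the partner. After joining such partners, domains made of 2 or more peaks held BRG1 in 45.1% (42.5 to 47.7) of cases and domains of 1 peak in 37.2% (36.2 to 38.1). Joined domains are also longer, and the part of length was not tested.

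Where 1 peak of a mark held 2 BRG1 midpoints, these tended to lie on opposite sides of its centre. That was so in 152 of 229 H3K4me3 peaks (66.4%, 59.9 to 72.5), with a median of 760.5 bp between the midpoints (717.5 to 838). In DMSO H3K27ac it was so in 268 of 461 peaks (58.1%, 53.5 to 62.7), with a median of 894.5 bp. BRG1 peaks do not overlap each other, which by itself keeps midpoints apart.

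BRG1 density fell steeply at the border of H3K4me3. In the 250 bp just inside an H3K4me3 end there were 22.3 BRG1 midpoints per 100 kb (21.1 to 23.5), and in the 250 bp just outside 5.23 (4.67 to 5.85). At 250 to 500 bp outside there were 1.16, at 500 to 750 bp 0.421, and at 1.5 to 2 kb 0.0849 (0.0388 to 0.161). The density just outside was thus below that inside, but above the average of 2.45 per Mb over the autosomes and X. At 1.5 to 2 kb outside it was below that average.

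The 2844 BRG1 peaks off H3K4me3 mostly lay far from it. Their median distance to the nearest H3K4me3 peak was 72972.5 bp (69011 to 79869), with quartiles of 24089 and 214184 bp. Within 1 kb there were 152 (5.34%), of which 128 were within 500 bp, while 2467 (86.7%) were 10 kb or more away, 1212 (42.6%) 100 kb or more and 97 (3.41%) 1 Mb or more. The median distance was 54168 bp for RUNX1 peaks off H3K4me3 and 35279 bp for DMSO H3K27ac peaks off it, and the differences were not tested. Counting a BRG1 peak as on H3K4me3 only when 50% of it was covered moved the median to 64123 bp.

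Among BRG1 peaks off H3K4me3, grouped ones were nearer to the mark than single ones. Groups were joined without regard to H3K4me3. A peak joined to one on H3K4me3 therefore lies near the mark by construction, and that part was not tested. Off H3K4me3, members of groups of 2 or more had a median distance of 49447 bp (42802 to 60542) and singles 85194 bp (77061 to 94351). At 1 to 10 kb from H3K4me3, 62.2% (55.5 to 68.6) had another BRG1 peak within the joining distance, against 28.1% at 10 to 50 kb and 22.9% at 100 to 500 kb. That other peak could be on or off H3K4me3, so the same limit applies. The DMSO H3K27ac peaks that held BRG1 were also widest at 1 to 10 kb, with a median of 6513.5 bp, and narrowed to 2524 bp at 500 kb or more. The nearest H3K4me3 peak held BRG1 itself for 1110 of the 2844 (39.0%, 37.2 to 40.9). This share was 31.3% (26.6 to 36.2) for BRG1 peaks under 10 kb away and 40.2% (38.3 to 42.2) for those at 10 kb or more, beside 34.5% of all H3K4me3 peaks. Several BRG1 peaks can share a nearest H3K4me3 peak, and 1653 different ones were involved.

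The share of these BRG1 peaks with each mark varied within a few percentage points over distance, apart from the nearest and farthest classes. DMSO H3K27ac overlapped 71.7% (63.8 to 78.7) of BRG1 peaks under 1 kb from H3K4me3, 90.7% at 1 to 10 kb and between 85.9 and 87.6% in all classes beyond. RUNX1 overlapped between 78.5 and 82.9% in every class up to 500 kb, and 69.5% (63.6 to 75.02) beyond it. The BRG1 peak farthest from H3K4me3, at 5837457 bp, was chr21:9512997-9513179, a 183 bp peak without RUNX1 inside a DMSO H3K27ac peak of 1407 bp. Among the 5 farthest, 1 overlapped RUNX1 and all 5 lay in H3K27ac of both conditions.

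After ACBI-1, H3K27ac was still called at most BRG1 peaks that had it in DMSO. Against the 59.1% of all 90495 DMSO H3K27ac peaks without an overlapping ACBI peak, 23.7% of BRG1 peaks in DMSO H3K27ac were without one. In counts, 5223 of the 6844 in DMSO H3K27ac (76.3%, 75.3 to 77.3) also overlapped ACBI H3K27ac, and 1621 did not. H3K27ac peaks with BRG1 are wide, and the ACBI list holds 52967 peaks, so the share is not comparable with the background as it stands. A closer comparator is the DMSO H3K27ac peak itself. Where it carried H3K4me3, an ACBI peak overlapped 87.3% (86.2 to 88.3) of BRG1-bearing peaks, beside 84.4% (83.5 to 85.2) of BRG1-free ones. Their median widths were 2048 and 1708 bp, and the part of width was not tested. Off H3K4me3 an ACBI peak overlapped 80.9% (79.1 to 82.5) of BRG1-bearing peaks, of median width 2846.5 bp, beside 33.8% (33.4 to 34.1) of BRG1-free ones, of median width 644 bp. Outside DMSO H3K27ac, 33 of 601 BRG1 peaks (5.49%) overlapped ACBI H3K27ac.

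On and off H3K4me3 the acetylation at BRG1 was missing in different ways, and DMSO H3K27ac peaks without BRG1 differed in the same direction. BRG1 peaks on H3K4me3 kept ACBI overlap in 74.4% (73.1 to 75.7) and those off it in 79.7% (78.0 to 81.3). Among the 1123 on H3K4me3 that did not, 579 (51.6%, 48.6 to 54.5) sat in a DMSO H3K27ac peak that still overlapped an ACBI peak elsewhere, so that ACBI H3K27ac covered part of the DMSO interval but not the BRG1 peak. Off H3K4me3 this was so for 92 of 498 (18.5%, 15.2 to 22.2), and for the others no ACBI peak overlapped any part of the DMSO interval. Of 6429 BRG1-free H3K27ac peaks with H3K4me3, ACBI H3K27ac overlapped 5424, and in 778 of these it missed the midpoint. Of 77849 with neither, it overlapped 26287 and missed the midpoint in 9981 of these. Among all uncovered midpoints, kept intervals were thus also a larger part with H3K4me3 than without it. Of the 653 uncovered BRG1 peaks with an ACBI peak within 1 kb, 567 were on H3K4me3. When an ACBI peak within 1 kb was counted as overlap, the order turned, with 87.3% on H3K4me3 and 83.2% off it.

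The order also turned with the width of the DMSO H3K27ac peak. In peaks under 1 kb the share of BRG1 peaks with ACBI overlap was 39.2% (34.98 to 43.6) on H3K4me3 and 30.2% (25.2 to 35.6) off it. At 1 to 2 kb it was 71.8% and 63.6%, at 2 to 3 kb 81.6% and 84.8%, and at 3 to 5 kb 83.5% and 92.2%. At 5 kb or more it was 90.5% (87.5 to 92.9) and 97.7% (96.4 to 98.7). By contrast, a larger share on H3K4me3 was left uncovered within an interval that was kept, in each of these 5 width classes. The base is all BRG1 peaks of the class, those in lost intervals included. The share was 13.7% (12.05 to 15.5) and 5.68% (3.71 to 8.27) at 1 to 2 kb, and 9.54% (7.07 to 12.52) and 2.14% (1.25 to 3.40) at 5 kb or more.

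**Figure D5:**
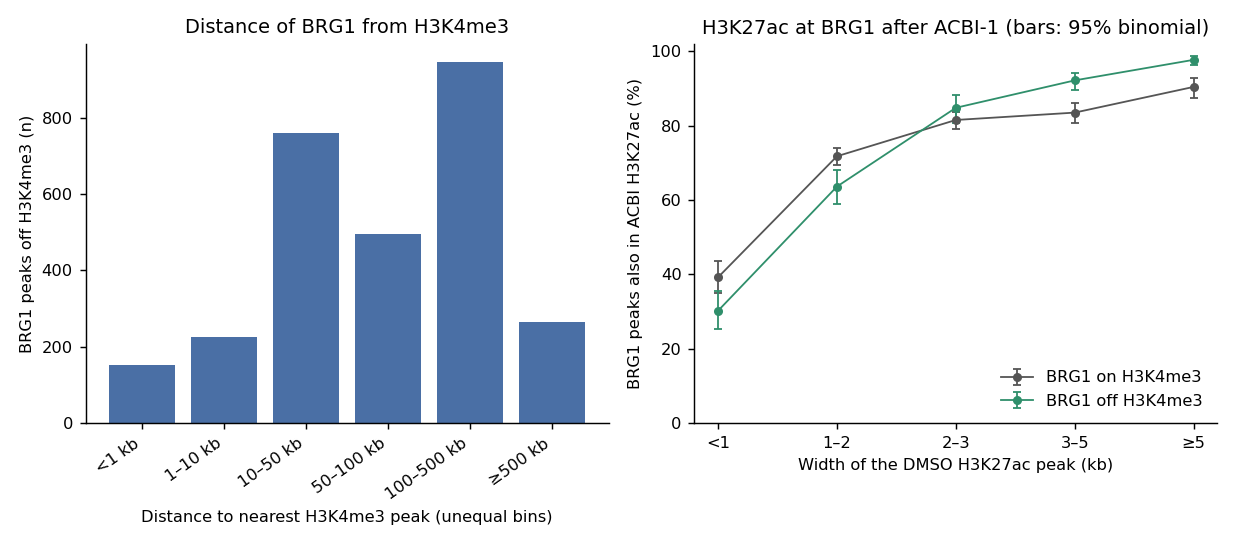
Left, number of BRG1 peaks off H3K4me3 by distance to the nearest H3K4me3 peak (bins of unequal width). Right, share of BRG1 peaks in DMSO H3K27ac that also overlap ACBI H3K27ac (percent) by width of the DMSO H3K27ac peak (kb), on and off H3K4me3, 1 library each, with exact binomial 95% intervals. The bin from 100 to 500 kb holds 946 peaks, and the curves cross between 1 to 2 kb and 2 to 3 kb.

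Place within the H3K27ac peak went with the outcome as well. Off H3K4me3, 1.96% (1.27 to 2.88) of BRG1 peaks in the central tertile of their DMSO H3K27ac peak were left uncovered by an interval that was kept, and 5.58% (4.31 to 7.10) of those in the outer tertiles. On H3K4me3 the corresponding shares were 11.1% (9.68 to 12.6) and 13.8% (12.49 to 15.3). As a comparator, a DMSO H3K27ac peak was kept with its midpoint uncovered in 12.1% of those with H3K4me3 and no BRG1, and in 12.8% of those with neither. It was so in 15.9% (14.8 to 17.1) of those with H3K4me3 and BRG1 and in 14.6% (13.1 to 16.2) of those with BRG1 alone. The base of each share in this paragraph includes intervals that were lost. ACBI H3K27ac covered the midpoint itself in 72.3% of peaks with H3K4me3 and no BRG1, and in 20.9% of those with neither. It did so in 71.3% of peaks with H3K4me3 and BRG1, and in 66.3% of those with BRG1 alone. The classes differ in how many intervals were kept, so the shares do not compare them among kept intervals alone.

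BRG1 peaks in company kept ACBI overlap more often, and so did wide BRG1 peaks off H3K4me3. The share was 74.2% for a BRG1 peak alone in its H3K27ac peak, 85.2% with 1 other and 92.3% with 2 or more others, while the median width of those H3K27ac peaks went from 2118 to 3724 and 10445 bp. Off H3K4me3, the share over quartiles of BRG1 width was 74.3, 77.3, 80.3 and 89.0%, and on H3K4me3 73.6, 72.8, 75.3 and 75.7%. The DMSO H3K27ac peaks around the widest quartile off H3K4me3 had a greater median width, 4309.5 bp, than those around the other 3 quartiles, at 3037.5 to 3045 bp, and the part of that width was not tested. Off H3K4me3, BRG1 peaks without ACBI overlap lay farther from H3K4me3, at a median of 95766.5 bp (78338 to 115181), than those with it, at 71421 bp (66188 to 76527). By distance the share with ACBI overlap was 60.6% (50.7 to 69.8) under 1 kb, 90.2% (85.3 to 93.9) at 1 to 10 kb and 77.3% at 500 kb or more, and the H3K27ac peaks were widest where it was highest.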

How the data were processed

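Peak lists of 5 of the 9 CUT&RUN samples were used, with 1 library per target and condition, grouped by the antibody and treatment in the labels. The 4 control libraries were not analysed here. The authors deposited each list as 4 columns of positions and names, with no score or signal. The submitters' processing notes name hg19 as build and MACS2 and SEACR as peak callers. The RUNX1 peaks come from MACS2, and those of H3K27ac are broad peaks at q below 0.01, per the file headers. For the BRG1 list, the caller's threshold, the aligner, the depth, the control and any pooling were not given in the sources used here. Lists made with different settings or depth differ in number and width of peaks, so counts of different targets are not comparable.

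Overlaps of at least 1 bp, gaps, positions and distances were computed with scipy 1.17.1, pandas 2.3.3 and numpy 2.4.6 under Python 3.11.15. Plots were made with matplotlib 3.10.9. Overlaps, distances and positions were checked on simulated data. Overlap counts and distances were also checked against bedtools 2.31.1, with 0 of 7445 BRG1 peaks differing. Positions inside a mark use the BRG1 midpoint. Quintiles are of all peaks of the mark by width. Shares have exact Clopper-Pearson intervals, densities exact Poisson intervals and medians binomial order-statistic intervals. No test was made.

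Named sites are the 5 H3K4me3 peaks, H3K27ac peaks and groups with the most BRG1 peaks, and the 5 BRG1 peaks off H3K4me3 that are farthest from it or widest. Ties were broken by summed BRG1 width and then by position. The 5 most isolated peaks are given in the closing section. The peak set, classes and rules were chosen with earlier results of these data known. The joining of H3K4me3 peaks, the border profile, the pairs within a mark and the classes by H3K27ac width were added after seeing the data. Other overlap rules, widths, merging and chromosome sets were tried as alternatives.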

Additional observations from a re-analysis of the deposited data

How the results depend on the processing

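Of 68 alternative values, 36 moved by less than the counting interval of the reported value and 32 by more. All alternatives on the autosomes and X alone were among the 36. With the wider 50% of the BRG1 peaks, 7.12% had a BRG1 neighbour within 1 kb, the median gap was 246745 bp, the density ratio between chromosomes was 9.70, and BRG1 was in 19.4% of H3K4me3 and 3.67% of DMSO H3K27ac peaks, with 2 or more in 3.57% and 5.39% of those. The central tertile then held 36.5% (H3K4me3) and 48.8% (H3K27ac), the median distance to H3K4me3 was 82786 bp, and 84.3% off H3K4me3 overlapped ACBI H3K27ac. Merging BRG1 gaps of up to 200 bp gave 8.65% with a neighbour within 1 kb, and 2 or more BRG1 peaks in 4.53% (H3K4me3) and 7.11% (H3K27ac). Measured between midpoints, 9.48% had a neighbour within 1 kb. The density ratio was 2.35 per Mb of H3K27ac and 2.97 per 100 H3K4me3 peaks. With 50% of the BRG1 peak covered, BRG1 was in 31.7% of H3K4me3 and 6.63% of H3K27ac peaks, the median distance was 64123 bp, and ACBI overlap was 68.6% on and 76.7% off H3K4me3. Merging H3K27ac gaps of up to 1 kb gave 8.26% with BRG1 and 44.3% in the central tertile. H3K27ac peaks of at least 500 bp gave 10.1% with BRG1 and ACBI overlap of 72.0% on and 77.1% off H3K4me3. An ACBI peak within 1 kb was found for 87.3% on and 83.2% off H3K4me3, which turned their order. Merging H3K4me3 gaps of up to 500 bp, chosen after seeing the data, gave 38.2% with BRG1, 7.43% of those with 2 or more, and 36.3% in the central tertile. Beyond what each rule changes by construction, the cause was not tested. No paired analysis was possible because the results come from no test and the 2 H3K27ac libraries share only the number 2. Depth is unknown, so what it limits could not be measured, and the wider 50% of the peaks stands in for a stricter threshold because the lists hold no score.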

Other observations

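The BRG1 peak farthest from any other was chrY:7141700-7141939, 240 bp wide and 7563522 bp from its nearest neighbour, on H3K4me3 and with RUNX1. It lay in a DMSO H3K27ac peak of 2939 bp and outside ACBI H3K27ac. The next, chrX:63425485-63425671, was 187 bp wide, 6862385 bp from its neighbour, on H3K4me3, with RUNX1 and in H3K27ac of both conditions. The third was the chromosome 21 peak that is also farthest from H3K4me3. The last 2, chr4:191033621-191033787 and chrX:96818523-96818916, were off H3K4me3 and in H3K27ac of both conditions, and of the pair only the former overlapped RUNX1. All 5 lay in DMSO H3K27ac, and their widths ran from 167 to 394 bp.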
